A study of Mus musculus with 9 samples.

Results

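Opposite-strand lncRNAs are long non-coding RNA genes that carry the symbol of a coding gene followed by "os", because they lie on the other DNA strand at or beside that gene. They were chosen by name from the authors' lncRNA table: 278 of its 5385 features have a symbol ending in os, with or without a number, and without Rik. For 277 of the 278 the coding gene is listed in the authors' mRNA table, which holds 39336 features, and these 277 share 233 coding genes. The exception is Etos1, whose remaining letters are no symbol of that table. The named gene is called the coding gene throughout, although Snhg7, of Snhg7os, is a small nucleolar RNA host gene. Levels were measured by RNA sequencing of germ cells from the testes of adult male mice on a normal diet, with 3 libraries each from spermatogonia of types A and B, pachytene spermatocytes and round spermatids. The labels name no strain or genotype and no method of cell separation. The series calls the 3 libraries of a stage biological replicates, and p-values measure the spread between them.

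Spermatogonia divide by mitosis, pachytene is a stage of the long meiotic prophase in which homologous chromosomes are paired, and round spermatids are haploid and go on to build the acrosome and flagellum. Transcription in the late stages is broad, and many promoters fire in both directions. An opposite-strand lncRNA may start beside its coding gene and run away from it, sharing one promoter region (a divergent pair), or it may start within or beyond the gene and run through it as an antisense transcript. Some antisense RNAs are known to act on their gene in cis, but for most of those described here no function is established.

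Nearly all lay on the strand that the name gives. In GENCODE M21 (GRCm38, the assembly called mm10), 276 of the 278 were found by identifier, 247 of them typed as antisense and 3 as protein-coding, and 274 lay on the strand opposite to their coding gene. Cep112os2 was on the same strand as Cep112. Exons of the pair overlapped for 150 lncRNAs, the genes but not their exons overlapped for 81, and the pair lay apart for 43. Start sites were within 1 kb of each other for 115 of the 274, including 27 of the 43 that lay apart. The libraries were strand-specific, but no source used here says whether the authors' counting used the strand, so where exons overlap, reads of the lncRNA and of its coding gene cannot be told apart.

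Divergent pairs show the arrangement most plainly. RefSeq (GRCm38.p6) gives a promoter window, from 250 bases before the start to 50 after it, for 165 of the 278 lncRNAs and for both partners of 138 pairs, and in 28 pairs the windows overlapped on opposite strands. The windows of 6 such lncRNAs are printed because their pairs do different things along spermatogenesis: Hmgb4os, Med9os and Arl4aos rose with their coding gene, Stamos rose alone, Etaa1os rose while its gene fell, and Cep83os parted from its gene after pachytene. Each is written 5′ to 3′ on the lncRNA's strand, and capitals mark the stretch that is also in the coding gene's window, read there on the other strand.
Hmgb4os: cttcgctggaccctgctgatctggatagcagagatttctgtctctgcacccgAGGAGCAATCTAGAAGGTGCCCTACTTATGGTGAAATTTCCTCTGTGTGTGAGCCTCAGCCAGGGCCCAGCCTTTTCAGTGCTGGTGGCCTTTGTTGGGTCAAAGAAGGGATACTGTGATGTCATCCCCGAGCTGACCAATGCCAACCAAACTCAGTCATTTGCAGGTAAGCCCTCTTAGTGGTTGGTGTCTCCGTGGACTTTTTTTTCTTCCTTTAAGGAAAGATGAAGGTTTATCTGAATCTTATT
Med9os: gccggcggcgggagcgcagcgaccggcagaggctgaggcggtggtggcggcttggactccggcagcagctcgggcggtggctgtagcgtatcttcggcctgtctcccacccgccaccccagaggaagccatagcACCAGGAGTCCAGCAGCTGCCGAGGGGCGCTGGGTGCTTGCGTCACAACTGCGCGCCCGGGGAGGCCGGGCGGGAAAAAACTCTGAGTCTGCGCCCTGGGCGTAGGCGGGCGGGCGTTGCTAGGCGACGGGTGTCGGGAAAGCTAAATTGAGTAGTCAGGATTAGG
Arl4aos: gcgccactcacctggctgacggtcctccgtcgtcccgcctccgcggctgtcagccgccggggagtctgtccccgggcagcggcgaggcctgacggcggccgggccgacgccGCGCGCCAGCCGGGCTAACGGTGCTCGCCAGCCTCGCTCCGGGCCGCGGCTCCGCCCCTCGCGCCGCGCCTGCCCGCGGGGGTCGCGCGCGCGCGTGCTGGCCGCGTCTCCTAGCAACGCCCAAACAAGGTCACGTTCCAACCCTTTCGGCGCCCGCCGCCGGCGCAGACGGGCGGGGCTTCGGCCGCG
Cep83os: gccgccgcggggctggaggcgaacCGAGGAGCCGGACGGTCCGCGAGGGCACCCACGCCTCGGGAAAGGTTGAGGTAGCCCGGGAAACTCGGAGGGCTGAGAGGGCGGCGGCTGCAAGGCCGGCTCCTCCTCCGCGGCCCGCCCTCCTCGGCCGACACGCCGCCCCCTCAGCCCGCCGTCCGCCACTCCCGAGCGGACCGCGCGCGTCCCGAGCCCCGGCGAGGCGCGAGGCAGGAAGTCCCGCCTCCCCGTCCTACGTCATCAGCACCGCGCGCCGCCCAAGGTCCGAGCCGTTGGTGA
Stamos: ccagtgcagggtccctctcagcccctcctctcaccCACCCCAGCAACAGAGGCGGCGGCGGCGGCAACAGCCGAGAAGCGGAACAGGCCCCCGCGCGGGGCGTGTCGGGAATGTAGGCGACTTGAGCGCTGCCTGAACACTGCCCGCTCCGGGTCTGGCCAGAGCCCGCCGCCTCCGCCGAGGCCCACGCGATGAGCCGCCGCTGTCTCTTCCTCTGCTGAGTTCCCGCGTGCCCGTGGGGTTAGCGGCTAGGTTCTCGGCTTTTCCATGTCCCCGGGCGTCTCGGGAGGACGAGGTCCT
Etaa1os: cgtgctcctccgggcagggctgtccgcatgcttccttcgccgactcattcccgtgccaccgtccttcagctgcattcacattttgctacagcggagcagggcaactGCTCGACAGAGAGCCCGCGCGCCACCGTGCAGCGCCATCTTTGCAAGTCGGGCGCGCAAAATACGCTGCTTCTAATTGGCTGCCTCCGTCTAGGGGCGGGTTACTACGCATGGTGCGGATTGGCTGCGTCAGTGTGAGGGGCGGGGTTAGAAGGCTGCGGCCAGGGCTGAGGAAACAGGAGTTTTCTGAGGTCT
The Hmgb4os window is chr4:128260794-128261093 (plus strand) and shares 248 bases with that of Hmgb4, with the annotated starts 149 bases apart. The Med9os window, chr11:59948098-59948397 (minus strand), shares 166 bases. The Arl4aos window, chr12:40037827-40038126 (plus strand), shares 189 bases. The windows of Cep83os, chr10:94688564-94688863 (minus strand), and Stamos, chr2:14073885-14074184 (minus strand), share 276 and 265 bases. The Etaa1os window, chr11:17953720-17954019 (plus strand), shares 194 bases. Their base composition differed: 48.3% G and C with 4 CpG for Hmgb4os, against 79.3% with 55 CpG for Arl4aos.

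The GC box, searched as GGGCGG on both strands, was in 17 of the 28 overlapping windows (60.7%), in 27% of the 200 windows of opposite-strand lncRNAs, some of which have more than 1, in 49.8% of the 273 windows of their coding genes, and in 35.7% of all 32851 promoter windows of the table. The 28 windows had a median of 68.7% G and C, against 59.3% in the coding genes' windows and 52.7% over all windows, and a GC box is made of those letters. For the other motifs the shares of the lncRNAs' windows, of their coding genes' windows and of all windows follow in that order. The cAMP response element, TGACGTCA, was in 1 of the 28 (3.57%), against 1%, 1.83% and 1.79%. A core of the X-box, GTTGCC, was in 7 of the 28 (25%), against 14.5%, 14.3% and 12.5%. The MYB core, TAACNG, was in 2 of the 28 (7.14%), against 22.5%, 20.1% and 23.3%. The TATA box letters, TATAAA, were in none of the 28, against 8.5%, 6.59% and 13.6%. These are matches of letters and not binding sites.

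The lncRNA and mRNA tables hold FPKM values, which are fragments scaled to transcript length and library size, and each was scaled on its own. The same lncRNAs read by median 24.1 to 47.0 times higher in the lncRNA table than in the mRNA table, more in spermatogonia (37.0 to 47.0) than in pachytene (27.8 to 32.8) or round spermatids (24.1 to 29.8). The smallest step between low values, taken as 1 fragment, was 0.667 to 1.73 FPKM for a transcript of 1 kb in the lncRNA table and 0.0178 to 0.0530 in the mRNA table. Tests therefore stayed within a table, and a lncRNA was set beside its coding gene by mRNA-table values. Depth is not stated. In the mRNA table, 5 round spermatid markers stood in the pachytene libraries at 7.87% to 8.52% of their round spermatid level (medians per library), and rose 3.33 to 3.68 on the log2 scale between these stages. All 5 spermatogonia markers were called lower and all 5 pachytene markers higher in pachytene than in spermatogonia. Of the spermatogonia markers, 4 were called higher again in round spermatids than in pachytene, and the median change of the 5 was 1.44 on the log2 scale. Their sums were 137 to 174 FPKM in spermatogonia, 13.4 to 14.2 in pachytene and 39.3 to 41.0 in round spermatids. Markers of somatic cells were present in spermatogonia: the summed endothelial level was 28.5 to 64.2 FPKM there and 3.48 to 4.81 in pachytene. Leydig markers went the other way, with sums of 36.8 to 41.9 FPKM in spermatogonia, 89.5 to 97.0 in pachytene and 19.0 to 27.8 in round spermatids, and 3 of 6 called higher and 1 lower in pachytene. Spermatogonia replicate 3 stood apart, with the highest sums of peritubular and macrophage markers.

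Most opposite-strand lncRNAs were present at every stage: 145 of the 278 were above 0 in all 9 libraries, and 8 were listed at 0 in all 9. A minimum of 0.5 FPKM in 3 libraries was passed by 260 of the 278 in the lncRNA table, 10 of them through 1 stage alone. The 18 that did not pass include Hnf4aos, Prox1os, Ptf1aos, Six3os1, Otx2os1, Raxos1 and Hoxa11os, named after developmental transcription factors. Of the 233 coding genes, 196 passed in the mRNA table. Differences were tested with limma on log2(FPKM + 0.1), and a feature was called when its Benjamini-Hochberg adjusted p, over all 4009 or 17987 features tested in its table, was under 0.05 and its log2 fold change at least 1 in size. Members are named where they had the 25 largest called changes, and the others were chosen after their values were seen.

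From spermatogonia to pachytene, 148 of the 260 tested lncRNAs were called, 88 higher and 60 lower. Of all lncRNAs tested, 56.5% were called, 31.6% higher and 25% lower, and the members' shares, 33.8% and 23.1%, were close to that. Their median log2 fold change was 0.22, against -0.02 for all lncRNAs. Of the 196 coding genes, 78 were called higher and 61 lower. Over that whole table, 67.6% of features were called, 36.6% higher and 31% lower. With spermatogonia replicate 3 left out, 131 lncRNAs were called in place of 148. When the share of round spermatid RNA read from the 5 markers was subtracted from each pachytene library, 60 were called higher and 71 lower, so the balance of this contrast depends on that share. The subtraction takes all marker RNA in pachytene as spermatid RNA, and values were not allowed to go negative. Of the 25 lncRNAs with the largest changes, 24 were called at this step, and with the share subtracted 7 kept the call, 12 lost it and 5 changed sign. The part of spermatids in the pachytene libraries was not tested.

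Lyzl4os, Hmgb4os, Fam154aos, Ccdc42os, Spag17os and Maats1os, which are named after genes of sperm and cilia, were all called higher in pachytene. With the spermatid share subtracted from pachytene, the calls of Ccdc42os, Spag17os and Maats1os held and those of Lyzl4os, Hmgb4os and Fam154aos were lost. Lyzl4os read 0, 0 and 0.791 FPKM in the lncRNA table in spermatogonia, 258, 217 and 374 in pachytene, and 3061, 2610 and 4632 in round spermatids. No library overlapped between stages, and the log2 fold change was 10.38 ± 0.79 (SE; adjusted p = 8.21e-06) at the first step and 3.60 ± 0.79 (0.00848) at the second. Lyzl4, a lysozyme-like protein of the acrosome, rose with it, by 6.58 ± 0.20 and 3.54 ± 0.20 on the log2 scale in the mRNA table. The first-step change was 1.89 for Lyzl4os (adjusted p = 0.495) and 1.47 for Lyzl4 (0.271) with the spermatid share subtracted. Lyzl4os and Lyzl4 overlap without sharing exon sequence in M21, where their nearest starts lie 38654 bases apart. RefSeq differs: there the starts are 59 bases apart and the promoter windows share 158 bases.

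Hmgb4os was listed at 0 in the 3 spermatogonia libraries, at 17.9, 9.83 and 9.77 FPKM in pachytene and at 215, 145 and 179 in round spermatids, in the lncRNA table. Hmgb4, a high-mobility-group protein of the testis, was listed at 0 in the same 3 libraries and read 25.6 to 28.8 FPKM in pachytene and 310 to 336 in round spermatids in the mRNA table. Both were called higher in round spermatids than in pachytene, by 3.88 ± 0.40 (SE, adjusted p = 0.000196) for the lncRNA and 3.58 ± 0.06 (1.27e-09) for the coding gene on the log2 scale. Subtracting the spermatid share from pachytene left a first-step change of 1.05 for Hmgb4os (adjusted p = 0.363, not called) and took that of Hmgb4 from 8.09 to 2.47.

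Fam154aos had 3.58, 3.75 and 0 FPKM in the lncRNA table in spermatogonia, 38.2, 64.0 and 53.6 in pachytene, and 495, 436 and 717 in round spermatids. Its rise into pachytene was 5.5 ± 1.25 (SE, log2; adjusted p = 0.0054) and 0.19 (0.96) with the spermatid share subtracted, while the further step of 3.40 ± 1.25 had an adjusted p of 0.069 in the lncRNA table. In the mRNA table the same lncRNA rose by 3.40 ± 0.27 at that step (3.28e-06), where the replicates lay closer together. Fam154a encodes a protein of axonemal microtubules and rose by 4.99 ± 0.18 and 3.36 ± 0.18.

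Ccdc42os and Spag17os rose into pachytene and were not called after it, with differences of -0.31 ± 0.87 and -0.08 ± 0.37 (SE, log2). Ccdc42os read 1.37, 0 and 0.531 FPKM in the lncRNA table in spermatogonia, 49.1, 34.7 and 65.7 in pachytene and 42.3, 31.6 and 43.8 in round spermatids. Its divergent partner Ccdc42, needed for the coupling of sperm head and tail, read 0.138 to 0.203 FPKM in spermatogonia, 58.2 to 62.9 in pachytene and 73.0 to 76.5 in round spermatids in the mRNA table. Spag17os went from 1.40, 2.75 and 1.12 FPKM in the lncRNA table to 292, 294 and 400, and then read 225, 304 and 423. Spag17, a protein of the central pair of the axoneme, rose by 8.92 ± 0.09 (SE, log2; adjusted p = 1.78e-12) into pachytene.

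Maats1os read 0, 12.1 and 0 FPKM in the lncRNA table in spermatogonia, 278, 271 and 179 in pachytene and 559, 507 and 188 in round spermatids. All pachytene libraries lay above all spermatogonia libraries, and the log2 fold change was 8.90 ± 1.67 (SE; adjusted p = 0.00191). Its coding gene Maats1, a flagellar protein, rose by 5.32 ± 0.07, and the pair shares 305 bases of exon. Ccdc34os rose at both steps, from 3.34, 1.93 and 6.28 FPKM in the lncRNA table to 55.4, 48.4 and 75.5, and to 649, 695 and 856. Ccdc34, which takes part in building the sperm flagellum, rose by 1.76 ± 0.08 into pachytene and then differed by -0.14 ± 0.08 (adjusted p = 0.126). Both were called higher at the first step, but with the spermatid share subtracted Ccdc34os changed by -3.23 (adjusted p = 0.0921) and Ccdc34 by 1.65.

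As a group, the 15 lncRNAs named after sperm, cilium and centrosome genes were all tested, and 9 were called higher and 1 lower in pachytene. All 14 of their coding genes were called higher. Of all lncRNAs tested, 31.6% were called higher and 25% lower, and of all mRNA-table features 36.6% and 31%. The group was drawn up by role with earlier results of these data known, so its counts only describe it. Ift88os was the one that fell, by 1.27 on the log2 scale, while Ift88, which carries cargo in cilia and in the growing flagellum, rose by 2.99. B9d1os, Banf2os, Asb17os, Cntrobos and Cep112os2 were not called although their coding genes rose.

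**Figure D1:**
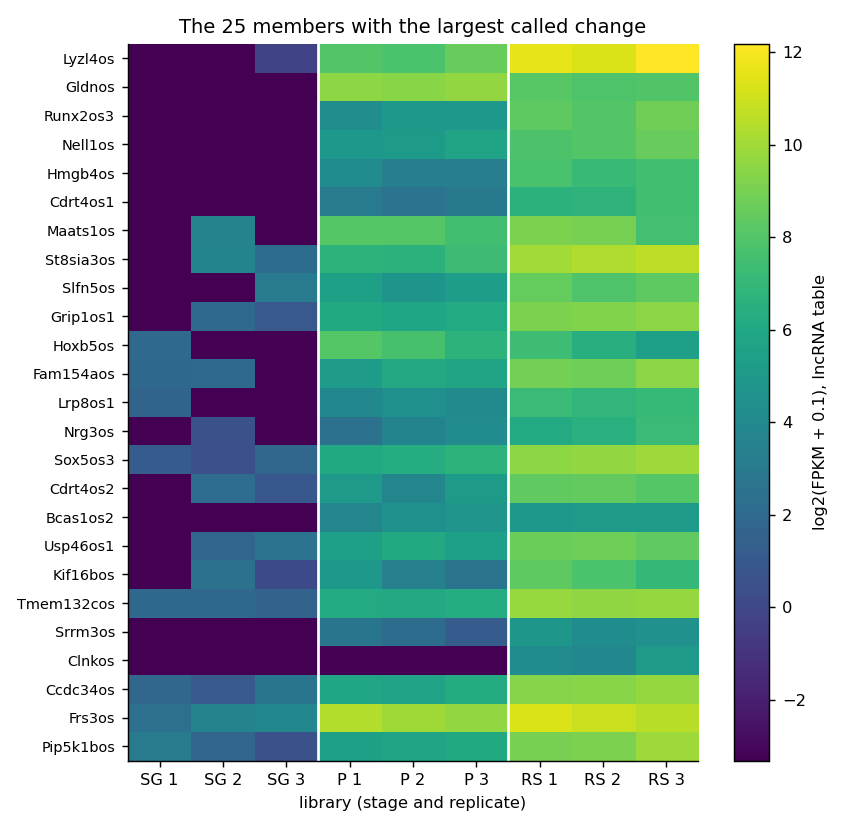
Heat map of log2(FPKM + 0.1) in the lncRNA table (colour) for the 25 members with the largest called change (rows) in each of the 9 libraries (columns; SG, spermatogonia; P, pachytene; RS, round spermatid; replicates 1 to 3). All 25 are lower in spermatogonia than in round spermatids, and Lyzl4os is among the brightest in round spermatids at 2610 to 4632 FPKM.

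The 25 largest called changes were all rises towards the later stages, in features at or near 0 in spermatogonia. Their size therefore depends on the 0.1 FPKM added before taking logs. Besides the genes above, several were named after genes of the nervous system, bone or immune cells. Gldnos was listed at 0 in spermatogonia and read 748, 695 and 803 FPKM in the lncRNA table in pachytene and 282, 245 and 249 in round spermatids. It was called higher and then lower, by 1.53 ± 0.20 on the log2 scale (adjusted p = 0.000559). Gldn encodes gliomedin, which gathers sodium channels at nodes of myelinated nerves, and had at most 0.328 FPKM in any library of the mRNA table, where Gldnos read 22.9 to 26.0 in pachytene.

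Hoxb5os, on the strand opposite to the homeobox gene Hoxb5, was called higher in pachytene too. It read 3.86, 0 and 0 FPKM in the lncRNA table in spermatogonia, 272, 203 and 104 in pachytene and 167, 82.8 and 42.9 in round spermatids. Its rise of 9.04 ± 1.35 (SE, log2; adjusted p = 0.000521) stands beside 0 to 0.335 FPKM of Hoxb5 over all libraries of the mRNA table, where Hoxb5os read 7.53 to 9.5 in pachytene, 4.63 to 5.43 in round spermatids and 0, 0 and 0.0799 in spermatogonia. Hoxd3os1 reached 852, 758 and 934 FPKM in the lncRNA table in pachytene from 48.0, 30.5 and 15.1 in spermatogonia, and 786, 709 and 900 in round spermatids, with a rise of 4.91 ± 0.37 (8.18e-06). Hoxd3 had 0 to 0.265 FPKM in the mRNA table, below the minimum for a test, where Hoxd3os1 read 0.448 to 0.738 in spermatogonia, 28.3 to 31 in pachytene and 28.7 to 32.8 in round spermatids.

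Runx2os3 and Nell1os, named after a transcription factor of bone and a secreted factor of bone growth, were listed at 0 in spermatogonia. Runx2os3 read 19.1, 30.6 and 30.4 FPKM in the lncRNA table in pachytene and 324, 265 and 453 in round spermatids. Nell1os read 30.2, 34.6 and 53.5, then 228, 262 and 376. Both rose again between the later stages, by 3.69 ± 0.35 and 2.88 ± 0.35 on the log2 scale (adjusted p = 0.000134 and 0.000419). Runx2 and Nell1 were not called at the first step and rose at the second, by 3.22 ± 0.30 and 1.17 ± 0.24. Runx2os3 was not called at the first step with the spermatid share subtracted (1.47, adjusted p = 0.32), and Nell1os was (6.53).

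Slfn5os read 0, 0 and 8.31 FPKM in the lncRNA table in spermatogonia, 43.9, 26.3 and 39.1 in pachytene and 359, 236 and 326 in round spermatids. Slfn5, an interferon-responsive gene, read 0.748 to 4, 0.473 to 0.585 and 2.28 to 3.36 FPKM in the mRNA table. In both, replicate 3 is the highest of the spermatogonia libraries, the library in which macrophage markers summed to 18.4 FPKM against a lowest sum of 3.07 in that stage. All 4 listed macrophage markers tested were also called higher in round spermatids than in pachytene, by a median of 3.40 on the log2 scale, with sums of 0.380 to 1.49 FPKM in pachytene and 8.65 to 10.6 in round spermatids. The part of those cells in the results for Slfn5os, Slfn5 and Clnkos was not tested. Slfn5os was not called at the first step with the spermatid share subtracted (3.65, adjusted p = 0.112). Clnkos, named after an adaptor of immune receptors, was listed at 0 in the 6 spermatogonia and pachytene libraries and read 17.8, 14.9 and 33.4 FPKM in the lncRNA table in round spermatids. It is one of the 10 that passed the minimum through 1 stage alone, so its call in round spermatids follows from that and is given as a description.

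Grip1os1 read 0, 3.77 and 1.88 FPKM in the lncRNA table in spermatogonia, 67.1, 56.1 and 71.8 in pachytene and 559, 602 and 717 in round spermatids. Sox5os3 read 2.22, 1.29 and 3.39, then 68.3, 78.3 and 104, then 753, 804 and 972. The stages did not overlap in either, and both lncRNAs were called at the first step, but only Sox5os3 at the second (3.35 ± 0.34 on the log2 scale, against 3.27 ± 1.15 for Grip1os1, adjusted p = 0.06). Their coding genes rose at both steps: Grip1, a synaptic scaffold protein, by 2.60 ± 0.07 and 3.35 ± 0.07, and Sox5, a transcription factor with a short testis form, by 3.24 ± 0.22 and 3.55 ± 0.22 on the log2 scale. With the round spermatid share subtracted from pachytene, the first-step changes of Grip1 and Sox5 became -0.01 and -1.14, and those of Grip1os1 and Sox5os3 became 3.03 (adjusted p = 0.0662) and 0.30 (0.912), neither called.

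St8sia3os read 0, 12.5 and 4.34 FPKM in the lncRNA table in spermatogonia, 104, 98.3 and 157 in pachytene and 1060, 1292 and 1590 in round spermatids, and its gene St8sia3, a sialyltransferase, was called higher at both steps. Their first-step changes were -1.39 and -0.21 with the spermatid share subtracted. Cdrt4os2 starts 114 bases from Cdrt4, and Cdrt4os1 lies over that gene without sharing exons. Cdrt4os1 was listed at 0 in spermatogonia and read 8.39, 5.86 and 7.62, then 99.2, 109 and 179 FPKM in the lncRNA table. Cdrt4os2 read 0, 4.60 and 1.75, then 34.0, 13.6 and 34.3, then 335, 353 and 267. Both lncRNAs and Cdrt4, which went from 0 to 0.0518 FPKM to 12.1 to 14.2 and then to 133 to 147 in the mRNA table, were called higher in pachytene. Under that subtraction Cdrt4 kept its call at 4.01 on the log2 scale, and Cdrt4os1 (0) and Cdrt4os2 (0.26, adjusted p = 0.926) lost theirs.

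Lrp8os1 read 3.15, 0 and 0 FPKM in the lncRNA table in spermatogonia, 15.2, 22.2 and 16.7 in pachytene and 150, 117 and 133 in round spermatids. Nrg3os read 0, 1.35 and 0, then 5.60, 12.8 and 17.8, then 71.8, 91.0 and 150. Usp46os1 read 0, 3.22 and 5.86, then 44.9, 68.1 and 42.6, then 411, 432 and 335. The stages did not overlap in any of the 3, and all were called higher in pachytene, but at the second step only Nrg3os was called (3.18 ± 1.04 on the log2 scale, adjusted p = 0.0458), a call lost in 9 of 23 alternatives. With the spermatid share subtracted, the first-step call of Lrp8os1 held (3.93, adjusted p = 0.0368), and those of Nrg3os (2.63, 0.239) and Usp46os1 (3.15, 0.103) were lost. Their coding genes differed: Lrp8, a lipoprotein receptor, was not called in pachytene, Nrg3, an ErbB ligand, rose by 1.82 ± 0.19 on the log2 scale, and Usp46, a deubiquitinase, rose by 1.31 ± 0.09 and then fell by 1.09 ± 0.09.

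Kif16bos read 0, 5.52 and 1.00 FPKM in the lncRNA table in spermatogonia, 30.4, 10.6 and 6.25 in pachytene and 321, 224 and 130 in round spermatids, and Kif16b, an endosomal kinesin, rose by 1.16 ± 0.09 on the log2 scale into pachytene. The rise of Kif16bos into pachytene, 3.9 ± 1.32, lost its call in 6 of 23 alternatives and turned negative in 1 more. Bcas1os2 was listed at 0 in spermatogonia and read 13.6, 21.5 and 26.5, then 30.5, 33.7 and 34.7 FPKM in the lncRNA table, while Bcas1 rose by 4.50 ± 0.25. Srrm3os was listed at 0 in spermatogonia too and read 6.35, 4.41 and 2.21, then 29.9, 18.4 and 22.7. Srrm3, a splicing factor of neurons, had at most 0.266 FPKM in the mRNA table and was not tested. The first-step call of Srrm3os was lost with the spermatid share subtracted (3.36, adjusted p = 0.0628).

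Frs3os illustrates a pair that moved together and then apart. In the mRNA table the lncRNA read 0.122, 0.246 and 0.392 FPKM in spermatogonia, 45.9, 44.9 and 45.2 in pachytene and 96.2, 99.6 and 101 in round spermatids. Frs3, an adaptor of FGF receptors that starts 69 bases away, read 3.76, 2.89 and 2.74, then 44.6, 52.4 and 48.4, then 8.38, 8.65 and 8.10. The lncRNA was below its coding gene in every spermatogonia library, near it in pachytene and above it in every round spermatid library. Frs3 fell by 2.52 ± 0.11 on the log2 scale (SE, adjusted p = 8.06e-08) at the second step, and Frs3os changed by 0.93 ± 0.41 (0.117) in the lncRNA table and by 1.12 ± 0.23 (0.00167) in the mRNA table. Frs3os and Frs3 share 509 bases of exon.

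The divergent lncRNAs whose promoter windows are printed above showed several of these courses. Med9os, whose partner Med9 is a subunit of the Mediator complex, was among the most abundant: 56.2, 45.7 and 27.2 FPKM in the lncRNA table in spermatogonia, 3940, 3522 and 3752 in pachytene and 4947, 3661 and 3552 in round spermatids. It rose by 6.50 ± 0.27 (SE, log2; adjusted p = 2.05e-07) and then changed by 0.10 ± 0.27. Med9 rose by 2.08 ± 0.07 and then changed by 0.15 ± 0.07. In the mRNA table Med9os went from 0.638 to 0.924 FPKM, below the 9.40 to 11.1 of Med9, to 112 to 118, above the 42.4 to 43.7 of Med9.

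Stamos read 37.4, 44.3 and 20.2 FPKM in the lncRNA table in spermatogonia, 1174, 975 and 1499 in pachytene and 1551, 1151 and 1725 in round spermatids, a rise of 5.21 ± 0.32 (SE, log2; adjusted p = 2.27e-06). Stam, an endosomal sorting adaptor, read 11.9, 13.0 and 14.6 FPKM in the mRNA table, then 7.62, 7.15 and 6.62, then 10.2, 10.6 and 10. Its change into pachytene, -0.88 ± 0.09 (6.91e-06), stayed under the fold threshold, so the lncRNA alone was called although the windows overlap.

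Etaa1os and Etaa1 went opposite ways from starts 95 bases apart. Etaa1os read 29.4, 45.3 and 31.3 FPKM in the lncRNA table in spermatogonia, 693, 664 and 1041 in pachytene and 370, 350 and 688 in round spermatids. Etaa1, an activator of the replication-stress kinase ATR, read 7.99, 8.65 and 6.87 FPKM in the mRNA table, then 4.14, 3.55 and 3.62, then 2.17, 1.94 and 2.04. The lncRNA rose by 4.49 ± 0.32 (SE, log2; adjusted p = 5.68e-06) and the coding gene fell by 1.03 ± 0.11 (1.21e-05), which is just past the fold threshold and was lost in 4 of 19 alternatives.

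Arl4aos read 11.8, 17.0 and 5.89 FPKM in the lncRNA table in spermatogonia, 471, 347 and 240 in pachytene and 1291, 1034 and 700 in round spermatids, and rose by 4.99 ± 0.43 and 1.52 ± 0.43 (SE, log2; adjusted p = 1.76e-05 and 0.0259). The call at the second step was lost in 5 of 23 alternatives. Arl4a, a small GTPase abundant in male germ cells, rose by 4.45 ± 0.06 and then changed by 0.60 ± 0.06, under the fold threshold. Cep83os, typed in M21 as a bidirectional promoter lncRNA, read 150, 162 and 133, then 2742, 2994 and 3029, then 661, 713 and 256 FPKM in the lncRNA table. It rose by 4.30 ± 0.36 (1.47e-05) and fell by 2.56 ± 0.36 (0.000876), while Cep83, a centriole protein that anchors cilia, rose at both steps, by 1.52 ± 0.06 and 1.13 ± 0.06. Pachytene was the peak of the lncRNA, and round spermatids that of the coding gene.

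Dgkeos read 13.5, 6.91 and 12.8 FPKM in the lncRNA table in spermatogonia, 835, 739 and 945 in pachytene and 2011, 1652 and 1924 in round spermatids. It rose by 6.29 ± 0.27 and 1.15 ± 0.27 on the log2 scale (SE, adjusted p = 2.06e-07 and 0.0107). Dgke, a diacylglycerol kinase, read 6.20 to 6.65 FPKM in the mRNA table, then 4.46 to 4.89, then 3.17 to 3.23, and was not called. In the round spermatid libraries of that table Dgkeos stood at 73.8 to 85 FPKM.

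**Figure D2:**
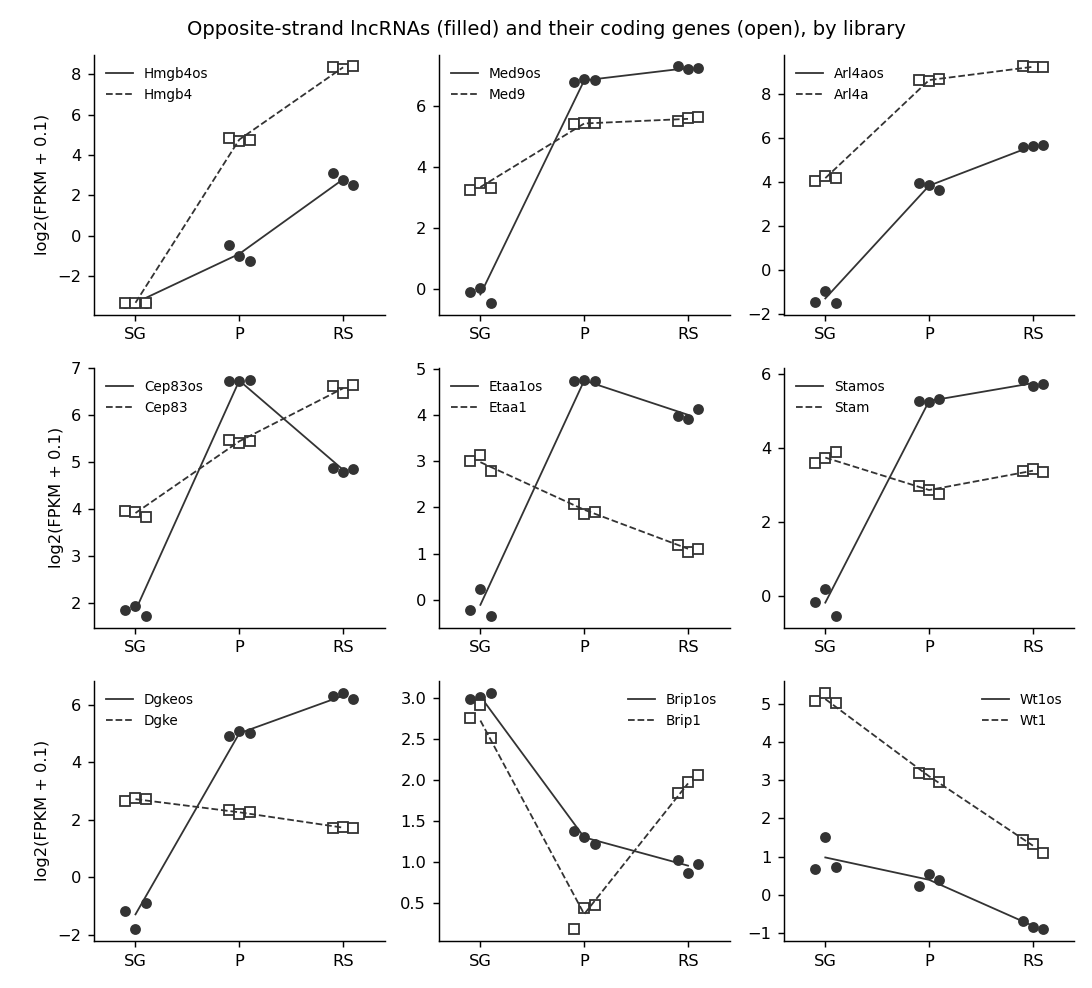
Level of 9 opposite-strand lncRNAs (filled circles, solid lines) and of their coding genes (open squares, dashed lines) as log2(FPKM + 0.1) in the mRNA table, for each library of spermatogonia (SG), pachytene (P) and round spermatids (RS). Points are libraries, lines join stage means, and Med9os crosses above Med9 in pachytene, and Etaa1os and Stamos rise while Etaa1 and Stam do not.

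Among the lncRNAs that fell, several are named after genes of the somatic cells of the testis or of spermatogonia. Wt1os, which starts 19 bases from the Sertoli cell transcription factor gene Wt1, read 71.0, 134 and 57.8 FPKM in the lncRNA table in spermatogonia, 30.0, 39.1 and 40.7 in pachytene and 13.2, 11.7 and 12.8 in round spermatids. It fell by 1.17 ± 0.33 and 1.52 ± 0.33 on the log2 scale (SE, adjusted p = 0.0142 and 0.00774), and Wt1 fell by 2.02 ± 0.11 and 1.81 ± 0.11. By its mRNA-table values Wt1os differed by -0.59 ± 0.23 at the first step (0.0358), under the fold threshold. The first-step call of Wt1os was lost in 3 of 23 alternatives. Of 8 Sertoli markers, which include Wt1, 7 were called lower at each step, and the remaining one at the first step, Rhox5, was called higher, from 0.613 to 1.13 FPKM to 3.67 to 4.58. Their sum was 464 to 560 FPKM in spermatogonia, 88.6 to 90.1 in pachytene and 25.9 to 28.1 in round spermatids, and none was at 0. In bulk RNA, fewer cells of a type and less RNA per cell cannot be told apart, and the part of Sertoli cells in these results was not tested.

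Zeb2os, which starts 26 bases from the start of the transcription factor gene Zeb2, read 32.0, 16.6 and 23.8 FPKM in the lncRNA table in spermatogonia and 2.02, 8.94 and 4.51 in pachytene, and fell by 2.39 ± 0.71 (SE, log2; adjusted p = 0.0183). That call was lost in 2 of 22 alternatives. Dnm3os, the transcript that carries a microRNA cluster within the dynamin gene Dnm3, read 41.1, 46.7 and 71.4, then 9.77, 8.59 and 13.9, then 1.54, 4 and 2.98. It fell at both steps, by 2.28 ± 0.44 and 1.95 ± 0.44, while Dnm3 rose by 3.32 ± 0.08 and then fell by 1.13 ± 0.08. Peritubular and interstitial markers summed to 174 to 383 FPKM in spermatogonia and 9.10 to 10 in pachytene, all 6 lower in pachytene, and their part in the result was not tested.

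Nr5a1os and Igf2os, beside genes of steroid-making cells and of growth, were not called in pachytene. Nr5a1os read 14.3, 14.4 and 6.19 FPKM in the lncRNA table in spermatogonia and 3.82, 4.99 and 8.72 in pachytene. Igf2os read 8.37, 6.15 and 3.05, then 2.94, 1.28 and 0.756. Their coding genes Nr5a1 and Igf2 fell by 2.61 ± 0.12 and 4.07 ± 0.26 on the log2 scale. Against spermatogonia, round spermatids had less of both, by 1.76 ± 0.56 (SE, adjusted p = 0.0243) and 2.45 ± 0.74 (0.0183), each lost in 3 of 21 alternatives. Of the 6 Leydig markers, which mark steroid-making cells, 3 were called lower and 1 higher in that contrast, but 3 higher and 1 lower in pachytene against spermatogonia. Of the 8 Sertoli markers, 7 were called lower and 1 higher in both of these contrasts. The part of either cell type in the result was not tested.

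Brip1os, which starts 177 bases from the DNA helicase gene Brip1, read 571, 541 and 539 FPKM in the lncRNA table in spermatogonia, 131, 125 and 152 in pachytene and 148, 157 and 202 in round spermatids. It fell by 2.02 ± 0.17 (SE, log2; adjusted p = 1.55e-05) and Brip1 by 2.36 ± 0.13, and then Brip1 alone rose, by 1.59 ± 0.13. Ctcflos read 53.8, 27.0 and 19.1, then 0.332, 7.21 and 1.76, then 53.1, 37.1 and 20.2. It fell by 4.07 ± 0.96 and rose by 4.25 ± 0.96 (adjusted p = 0.00629 and 0.00961), and Ctcfl, the testis paralog of CTCF, fell by 2.99 ± 0.17 and rose by 2.01 ± 0.17. Both members of the Ctcfl pair were thus lowest in pachytene, as was Brip1. The 5 spermatogonia markers fell into pachytene too, and 4 of them were called higher again in round spermatids. The part of spermatogonia in these results was not tested.

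Rab26os read 1254, 1329 and 943 FPKM in the lncRNA table in spermatogonia, 122, 97.1 and 83.1 in pachytene and 148, 195 and 394 in round spermatids, a fall of 3.55 ± 0.36 (SE, log2; adjusted p = 4.46e-05). In the mRNA table it stood at 24 to 33.8 FPKM in spermatogonia against 1.74 to 2.36 for Rab26, a vesicle GTPase. Junos and Fam120aos fell with Jun and Fam120a, by 1.92 ± 0.55 and 3.00 ± 0.66 (0.0167 and 0.0046). The call of Junos was lost in 2 of 23 alternatives.

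Over all features, 31.6% of lncRNAs were called higher and 25% lower in pachytene, and 36.6% and 31% in the mRNA table. Of the 35 tested lncRNAs named after developmental transcription factors, 9 were called higher and 10 lower in pachytene, as were 9 and 7 of their 20 tested coding genes. The 17 named after signals, receptors and their inhibitors split 6 and 6, with 1 of 11 coding genes higher and 6 lower. Of 14 named after chromatin and genome maintenance genes, 2 were higher and 3 lower, against 1 and 7 of 13 coding genes. Dnmt3aos and Dnmt3bos, beside the de novo DNA methyltransferase genes, had changes of -3.36 and -3.19 on the log2 scale that were not called, while Dnmt3a and Dnmt3b fell by 3.32 and 2.70.

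From pachytene to round spermatids, 62 of the 260 lncRNAs were called higher and 23 lower. Of all lncRNAs tested 31.5% were called, 22.5% higher and 9% lower. Of the coding genes 73 were called higher and 23 lower, while 40.8% of all features of the mRNA table were called, 27.3% higher and 13.4% lower. The members' median log2 fold change was 0.57, and that of all lncRNAs 0.38. Centring every library on the same median moved the median of all lncRNAs from 0.38 to -0.26 and the members' calls to 47 higher and 40 lower, so the excess of rises at this step depends on the scaling.

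Many of these rises were about as large as those of the round spermatid markers. The share over all lncRNAs called higher was not counted, so the counts that follow only describe the members. Of the 62 lncRNAs called higher, 32 had a log2 fold change within 0.5 of the range of the 5 round spermatid markers, 3.33 to 3.68. Of the 29 lncRNAs that rose at both steps, 19 did so. Examples are Far1os, Ube4bos3, Tmem132cos and Pip5k1bos. Far1os read 15.3, 17.3 and 27.3 FPKM in the lncRNA table, then 139, 130 and 166, then 1466, 1460 and 1756, with rises of 2.89 ± 0.24 and 3.43 ± 0.24 (SE, log2). Far1, an enzyme of ether lipid synthesis, changed by 0.22 ± 0.07 and 0.23 ± 0.07. With the spermatid share subtracted from pachytene, the first step of Far1os, Ube4bos3, Tmem132cos, Pip5k1bos and Ccdc34os turned negative.

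Fcnaos, on the strand opposite to the ficolin gene Fcna, read 17.8, 8.56 and 6.81 FPKM in the lncRNA table, then 285, 242 and 144, then 943, 1124 and 1628, and rose by 4.39 ± 0.41 and 2.48 ± 0.41 (SE, log2; adjusted p = 2.96e-05 and 0.00216). Fcna had at most 0.322 FPKM in the mRNA table. Mipepos, 1 base from the start of the mitochondrial peptidase gene Mipep, rose by 3.77 ± 0.29 and 2.61 ± 0.29, and Mipep by 2.91 ± 0.07 and 1.67 ± 0.07. H3f3aos fell by 1.72 ± 0.58 and rose by 3.06 ± 0.58 (0.0331 and 0.00441), while the histone gene H3f3a was not called at the first step, and the fall was lost in 5 of 23 alternatives.

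Over both steps, 44 lncRNAs rose into pachytene and were not called after, 29 rose at both, 15 rose and fell, 11 fell and rose, and 2 fell at both. These courses were not counted over all lncRNAs. Spermatogonia had the highest level for 38 of the 260, pachytene for 15 and round spermatids for 47, where a stage counts as highest when it was called above both others. Of all 4009 lncRNAs, 717, 198 and 703 were highest in these stages. From spermatogonia to round spermatids, 112 lncRNAs were called higher and 52 lower, against 62.5% of all called, 37.5% higher and 24.9% lower, with a median log2 fold change of 0.93 against 0.19. With equal library medians these calls became 91 and 84. Of the coding genes 81 were called higher and 51 lower, against 68.6% of the mRNA table called, 38.5% higher and 30.1% lower. With equal medians they became 77 and 62.

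The lncRNAs were also tested from their values in the mRNA table, where 151 passed the minimum. There 94 were called higher and 14 lower in pachytene against spermatogonia, 71 and 26 in round spermatids against pachytene, and 112 and 14 over the whole course. Over all features of that table, 36.6% were called higher and 31% lower, then 27.3% and 13.4%, and 38.5% and 30.1% over the whole course. The minimum there leaves out lncRNAs that are low at every stage, and a member that passed only through the stage where it is high had to differ. With a minimum of 0.05 FPKM and a pseudocount of 0.01, which fit the smaller fragment step of that table, 237 passed and 101 were called higher and 48 lower in pachytene. That setting was chosen after seeing the data.

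Pairs of an lncRNA and its coding gene more often moved together than apart when both moved. Both were tested in 231 pairs, which hold 192 coding genes, so some pairs share a gene. In pachytene against spermatogonia both were called in 91 pairs, 78 in the same direction (85.7%) and 13 in opposite directions. The lncRNA alone was called in 38, the coding gene alone in 72 and neither in 30. In round spermatids against pachytene 39 of 45 pairs with both called went the same way, and over the whole course 78 of 103. More lncRNAs and more coding genes were called higher than lower in each contrast, so unrelated features would often go the same way too. No share for unrelated pairs was counted. Without spermatogonia replicate 3 the opposite pairs were 7 in place of 13 at the first step and 16 in place of 25 over the whole course.

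**Figure D3:**
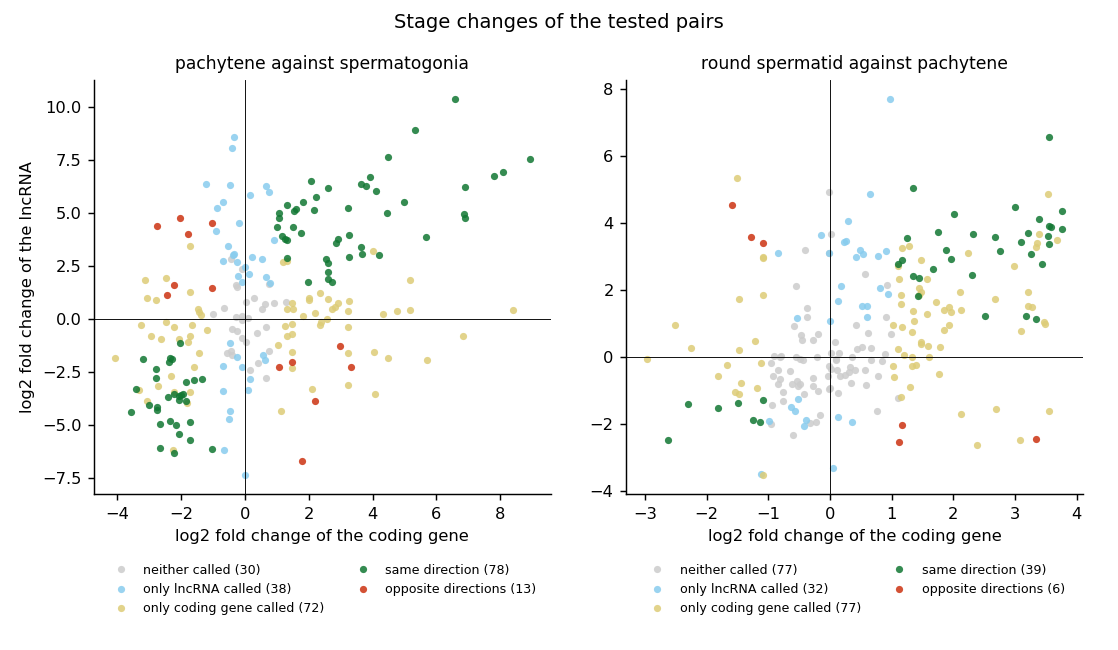
Log2 fold change of the lncRNA (vertical axis, lncRNA table) against that of its coding gene (horizontal axis, mRNA table) in the tested pairs, for pachytene against spermatogonia (left) and round spermatids against pachytene (right), coloured by which of the pair was called, with numbers of pairs in the legend. The 78 and 39 pairs called in the same direction fill the upper right and lower left.

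Pairs were also split by the distance between the start sites in M21, by which the Lyzl4 pair counts as farther apart although RefSeq places its starts close together. At the first step, of pairs with starts within 1 kb and both called, 39 of 41 moved in the same direction (95.1%), and of those farther apart 39 of 50 (78.0%). By mRNA-table values of the lncRNA the numbers were 33 of 34 and 26 of 36. The 2 close pairs that moved apart were Etaa1os, described above, and Sox6os. Sox6os read 13.4, 5.22 and 15.7 FPKM in the lncRNA table in spermatogonia and was listed at 0 in pachytene, while Sox6, a transcription factor, rose by 1.80 ± 0.10 on the log2 scale. At the later step 10 of 12 close pairs and 29 of 33 others moved in the same direction, the reverse order. Over the whole course the numbers were 35 of 44 and 42 of 58, with 1 pair on the same strand or not placed.

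By arrangement, 40 of 44 pairs with overlapping exons moved in the same direction at the first step, 21 of 29 with overlapping genes but separate exons, and 17 of 18 that lie apart. Reads cannot be shared between exons in the last set, in which the 24 tested divergent pairs had 13 in the same direction, 1 opposite and 5 with the lncRNA alone called. These shares describe the pairs and were not tested against each other.

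**Figure D4:**
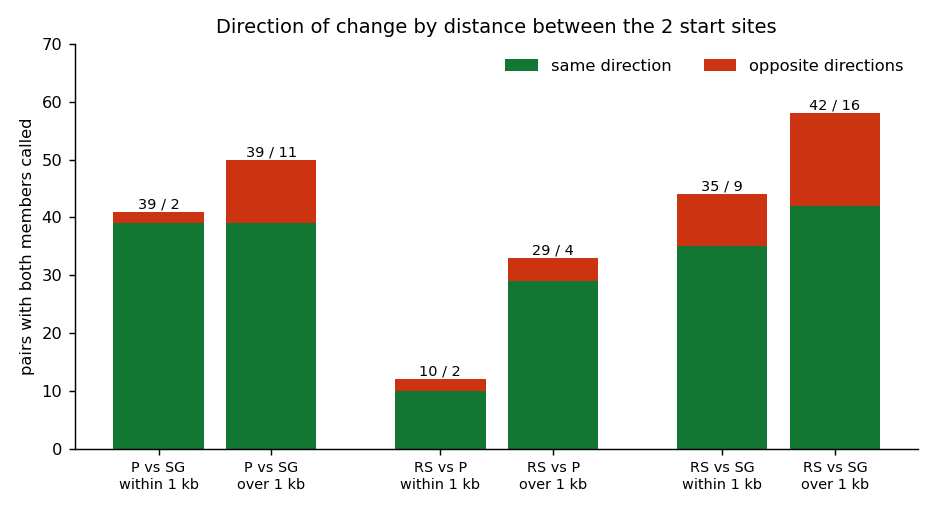
Number of pairs with both members called (bars from 0; green, same direction; red, opposite directions; numbers above the bars) in the 3 stage contrasts, for start sites within 1 kb and over 1 kb apart. In pachytene against spermatogonia (P vs SG) the split was 39 to 2 for close starts and 39 to 11 for distant ones.

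In 11 of the 13 pairs opposed at the first step the lncRNA starts over 1 kb from the coding gene's start. Tmem132cos rose from 3.71, 3.60 and 2.99 FPKM in the lncRNA table to 71.1, 65.2 and 78.7 and then 877, 765 and 837, and Tmem132c fell from 1.13, 0.917 and 0.992 FPKM in the mRNA table to 0.115, 0.00899 and 0.092. Tmem132c passed the minimum through spermatogonia alone, so its call as lower follows from that and is given as a description. Pip5k1bos rose from 8.18, 3.22 and 1.31 to 44.9, 52.9 and 68.2 and then 507, 549 and 966, and Pip5k1b, a phosphoinositide kinase, fell from 6.96 to 7.56 FPKM to 1.86 to 2.28 and then 0.653 to 0.974. The Pip5k1b pair was called in opposite directions at both steps, with the coding gene down by 1.77 ± 0.15 and 1.29 ± 0.15 on the log2 scale (SE, adjusted p = 2.24e-06 and 3.85e-05). In the mRNA table Pip5k1bos went from below Pip5k1b in every spermatogonia library to above it in every round spermatid library. With the spermatid share subtracted, the first-step changes of Tmem132cos and Pip5k1bos became -5.14 and -3.33, so neither pair was opposed there. The subtraction cut values off where they would have gone negative, so these are not measured falls.

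Kank4os peaked in pachytene, at 79.0, 78.2 and 91.8 FPKM in the lncRNA table against 32.1 to 40.9 before and 18.7 to 20.7 after, and Kank4, a cytoskeletal regulator, was lowest there, at 0.0227 to 0.0373 FPKM in the mRNA table. Like Tmem132c, Kank4 passed the minimum through spermatogonia alone, so its call as lower follows from that. Both pairs are among those counted as opposed at the first step. The other pairs opposed in round spermatids against pachytene were those of Cep83os, Grip1os3, Pard3bos1 and Scpep1os. Grip1os3 fell by 2.46 ± 0.61 (SE, log2; adjusted p = 0.015) while Grip1 and Grip1os2 were called higher. Grip1os1 was not called at that step in the lncRNA table. Pard3bos1 rose by 3.38 ± 0.34 (0.000164) while Pard3b, a polarity protein, went from 1.61 to 1.69 FPKM to 0.518 to 0.939. Scpep1os rose by 4.52 ± 1.23 (0.0221), a call lost in 5 of 23 alternatives.

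More than 1 lncRNA is named after each of 33 coding genes, 77 lncRNAs in all. At 8 of these genes (Lrp8, Pcsk2, Pitpnm2, Plxna4, Ube4b, Grip1, Prkag2 and Sox5) lncRNAs were called in both directions in at least 1 contrast. Ube4b, a ubiquitin ligase gene, itself read 17.1 to 20.6 FPKM in all 9 libraries of the mRNA table. Ube4bos1 fell from 75.6, 54.6 and 55.3 FPKM in the lncRNA table to 14.8, 10.5 and 12.5 and then read 9.46 to 11.3. Ube4bos3 rose from 46.7, 29.4 and 31.0 to 103, 110 and 133 and then 1186, 966 and 808, and Ube4bos2 was called higher in round spermatids than in spermatogonia. The changes of Ube4bos1 and Ube4bos3 into pachytene were -2.28 ± 0.26 and 1.71 ± 0.24 on the log2 scale (SE, adjusted p = 9.59e-05 and 0.000354).

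Measured per length in the mRNA table, the lncRNAs were mostly the lower partner. Among pairs in which either partner had a stage mean of at least 0.5 FPKM, the lncRNA lay above its coding gene in all libraries in 6 of 213 (2.82%) in spermatogonia, 38 of 211 (18%) in pachytene and 47 of 233 (20.2%) in round spermatids. The median log2 ratio of the levels was -3.30, -3.06 and -2.79. Median levels of the lncRNAs were 0.222, 0.603 and 0.955 FPKM, and those of the coding genes 5.52, 7.33 and 7.17. Efhd1os and Kcnmb4os1 were among the most abundant in pachytene in the mRNA table, at 183 to 199 and 130 to 136 FPKM. Efhd1, a mitochondrial calcium-binding protein, stood above its lncRNA at 312 to 330, and Kcnmb4, a subunit of potassium channels, below it at 26.3 to 27.4.

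**Figure D5:**
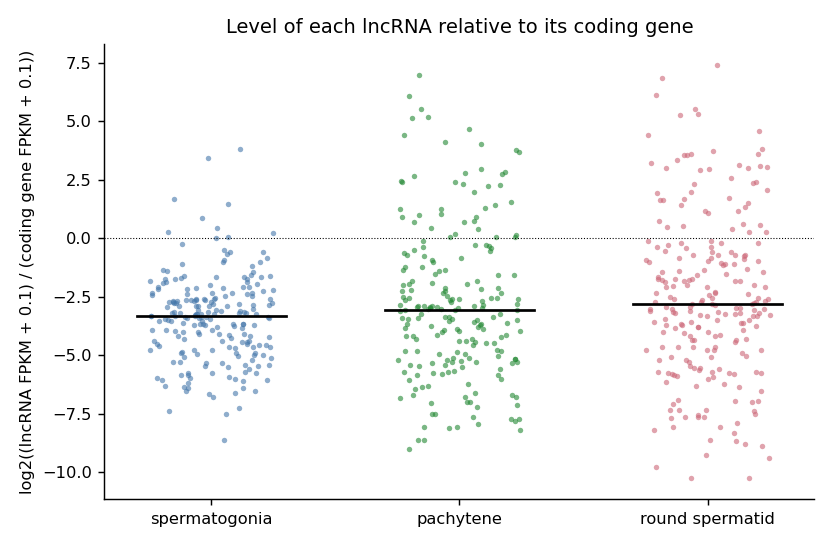
Log2 ratio of the level of each lncRNA to that of its coding gene, mean over the 3 libraries of a stage in the mRNA table with 0.1 FPKM added to both, for pairs in which either had a stage mean of at least 0.5 FPKM. Points are pairs, bars are medians at -3.30, -3.06 and -2.79, and points above the dotted line, where the lncRNA is the higher partner, are fewest in spermatogonia.

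Of 7 lncRNAs of the lncRNA table whose symbols end in as or ot, with or without a number, 4 were called higher in pachytene (Hoxaas2, Hoxaas3, Nespas and Sox2ot) and 3 lower (Dlx1as, Kcnq1ot1 and Gas5). The authors' deposited tables of called features list 98 opposite-strand lncRNAs for pachytene against spermatogonia, 66 higher and 32 lower, and 110 for round spermatids against pachytene, 73 higher and 37 lower. For the coding genes the authors' deposited tables list 154 at the first step, of which 78 are higher and 76 lower, and 134 at the second, of which 88 are higher and 46 lower. Those tables rest on the authors' own q-values. They hold changes under the fold threshold used here, such as Appbp2 from 33.5 to 20.8 FPKM in pachytene. The counts are thus not comparable with the calls above, and the shares over all listed features were not counted.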

How the data were processed

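RNA sequencing covered 9 libraries, 3 each of spermatogonia, pachytene spermatocytes and round spermatids; 1 µg of total RNA went into strand-specific 100 bp paired-end libraries, per the labels' protocols. The build is mm10 and the tools named are Trim Galore, FastQC, Cuffdiff 2.2.1 and TopHat2 2.0.12, per the submitters' processing notes; annotation, options and strand setting are not stated there. The authors deposited FPKM per feature and library in 2 tables, scaled separately, and lists of called features with p-values and q-values, of which the feature and direction were used. FPKM holds no depth, so no counting interval was made.

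Opposite-strand lncRNAs were taken by name and placed with GENCODE M21; promoter windows are from RefSeq (GRCm38.p6). The members and lists were chosen with earlier results of these data known. Each table was fitted whole with limma 3.58.1 (R 4.3.3) over all 9 libraries on log2(FPKM + 0.1), for features of at least 0.5 FPKM in at least 3 libraries, with eBayes (trend) and Benjamini-Hochberg adjustment. Features blank in some library (31, none a member) were dropped from the mRNA table. For low features the size of a fold change depends on the 0.1 FPKM added. Over the alternatives that of Gldnos in pachytene against spermatogonia ran from 7.91 to 16.2 on the log2 scale. The fit was tested on simulated data. Named are the 25 lncRNAs with the largest called change and a listed coding gene, and others chosen after their values were seen. Alternatives were other pseudocounts, minimums, centring and fits, a replicate block and each library left out.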

Additional observations from a re-analysis of the deposited data

How the results depend on the processing

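The FPKM scale, the large value of 1 fragment in the lncRNA table and 3 libraries per stage limit these results. Over 254 called changes of named features and 5353 alternative values, 5225 kept the call, 118 lost it and 10 reversed, and 194 changes kept it throughout. All 10 reversals came in pachytene against spermatogonia with the round spermatid share subtracted, an alternative added after seeing the data: the log2 fold change became -1.39 for St8sia3os, -0.92 for Kif16bos, -5.14 for Tmem132cos, -3.23 for Ccdc34os, -3.33 for Pip5k1bos, -0.69 for Ube4bos3, -3.87 for Far1os, -0.21 for St8sia3, -0.0052 for Grip1 and -1.14 for Sox5. The subtraction takes all marker RNA in pachytene as spermatid RNA. It cuts values off where they would go negative, so these are not measured falls. Without a fold threshold, opposite pairs numbered 24 in pachytene against spermatogonia and 10 in round spermatids against pachytene, where same-direction pairs numbered 64 and coding genes called 162. In round spermatids against pachytene, opposite pairs numbered 10 with a pseudocount of 3 FPKM in the lncRNA table (added later), 12 with the lncRNAs tested in the mRNA table and 13 there with the lower minimum and pseudocount; in round spermatids against spermatogonia, 15 with the lncRNAs tested in the mRNA table. Beyond the missing fold threshold, which admits more calls, the cause was not tested. Leaving out 1 library gave 7 to 14 opposite pairs in pachytene against spermatogonia, 4 to 8 in round spermatids against pachytene and 16 to 25 in round spermatids against spermatogonia. Same-numbered libraries did not deviate together (correlations of -0.038 to 0.0986 in the lncRNA table, 0 of 9 over 0.1), so the numbers pair nothing; with the replicate block 148, 87 and 163 lncRNAs were called in the 3 contrasts and opposite pairs numbered 12, 7 and 24.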
